A study of Homo sapiens with 18 samples.

Results

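Raji cells were followed for 9 genes of the ADP-ribosyltransferase system, PARP1, PARP2, PARP3, PARP8, PARP9, PARP10, PARP12, PARP14 and DTX3L, out of 18417 genes measured. The 9 genes were listed by symbol, and each was represented by the probe set of highest mean that the platform's gene table gives to 1 gene. Every one of the 9 had exactly 1 such probe set. Arrays of 5 later groups, from cells harvested 4, 8, 12, 24 and 48 h into the course, are set against arrays from cells harvested at 0 h, with 3 biological replicates per time and 18 arrays in all. Raji is a long-established line of malignant human B cells, derived from a Burkitt lymphoma, that carries the Epstein-Barr virus. Cells of all 6 times, 0 h included, are labelled as induced with sodium n-butyrate at 3 mM and phorbol ester at 0.05 µM and treated with maslinic acid at 19 µM, a plant triterpene. Arrays without these compounds were not analysed here, so effects of the compounds and of time in culture cannot be told apart. The model is 1 cell line, and no difference can be assigned to 1 compound.

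ADP-ribosyltransferases move ADP-ribose from NAD onto proteins, as single units or as chains. PARP1, PARP2 and PARP3 are nuclear enzymes that bind broken DNA and help to recruit repair factors. A separate branch of the family is made in response to interferon: PARP9 works as a pair with the ubiquitin ligase DTX3L, PARP14 reads and writes single ADP-ribose units, and PARP10 and PARP12 attach single units. These genes take part in antiviral responses, and PARP14 is also known as a partner of the transcription factor STAT6 in B cells.

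Arrays had medians of 4.03 to 4.25 and maxima of 12.39 to 12.93 on the log2 intensity scale. Replicate 2 of 8 h stood apart, with an interquartile range of 2.37 where the other 17 arrays had 2.74 to 3.16. The labelled cell type was checked against 5 measured B cell markers: MS4A1, CD22, CD79A and PAX5 lay above the array median on 18 arrays and CD79B on 17. Of 5 T cell markers, CD3E and CD2 lay above it on 0 arrays, CD3G on 1, and CD3D and TRAT1 on 6 each. Of 4 monocyte markers, CD14 and CD163 lay above it on 0 arrays, and LYZ and CSF1R on 5 each. Levels are given below as log2 intensities, and differences are later minus earlier time on that scale. A probe set's level cannot be compared with that of another gene. RNA was taken from whole cultures, so fewer cells expressing a gene and less RNA per cell cannot be told apart.

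PARP9, DTX3L and PARP14 were much higher at 24 and 48 h than at 0 h, and the step lay between 12 and 24 h. The other interferon-linked genes, PARP10 and PARP12, showed no difference past the test at any time. PARP1 and PARP2 were lower at 48 h than at 0 h by less than 1 on the log2 scale, the fall of PARP1 resting on single arrays, and PARP3 did not pass the test. Some cell type markers also differed between these times. The mean of the 5 B cell markers was 6.46 to 7.22 on the arrays of 24 h and 6.52 to 7.43 on those of 48 h, against 7.69 to 7.82 on those of 0 h, with 3 of the 5 lower at 12 h, 0 at 24 h and 1 at 48 h. The mean of the T cell markers was 3.58 to 3.74 at 24 h and 3.29 to 3.97 at 48 h, against 3.61 to 3.81 at 0 h. That of the monocyte markers was 3.58 to 3.74 and 3.37 to 3.71, against 3.24 to 3.62. Among the T cell markers, CD3D differed from 0 h by 1.57 at 24 h (limma adjusted p = 0.00297) and TRAT1 by -1.90 at 24 h and -2.22 at 48 h (limma adjusted p = 1.44e-05 and 1.43e-06). The part of these shifts in the results was not tested.

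PARP9, a macrodomain protein that binds ADP-ribose and has little or no enzyme activity alone, read 5.73, 5.75 and 5.56 at 0 h, 5.35, 5.21 and 4.88 at 4 h, 4.94, 4.88 and 4.74 at 8 h, and 5.11, 4.50 and 4.96 at 12 h. It then read 8.60, 8.68 and 7.44 at 24 h and 9.07, 8.87 and 8.13 at 48 h. All 6 late arrays lay above all 12 earlier arrays. That pattern, also given for DTX3L and PARP14 below, was not counted over all genes. By the looser count, the 3 arrays of 24 h lay above those of 0 h in 13.7% of all genes and those of 48 h in 15.2%. In PARP9, all 9 arrays of 4 to 12 h lay below the 0 h arrays. At 24 h the mean was 8.24 ± 0.69, against 5.68 ± 0.11 at 0 h (SD, n = 3 each), a difference of 2.56 (SE 0.28, limma adjusted p = 9.93e-06) or 5.89-fold. The 48 h mean of 8.69 ± 0.49 was 8.07-fold above that of 0 h (difference 3.01, limma adjusted p = 8.17e-07). Between 12 and 24 h, PARP9 gained 3.38 (limma adjusted p = 2.35e-06), which is 10.4-fold and the 16th largest rise among all 18417 genes in that interval. The 48 h and 24 h arrays overlapped, with a difference of 0.45 (SE 0.28, limma adjusted p = 0.662).

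DTX3L, the ubiquitin ligase that pairs with PARP9, followed the same order of times. It read 6.0, 5.75 and 6.28 at 0 h, 5.48, 5.33 and 5.11 at 4 h, 5.33, 4.93 and 4.94 at 8 h, and 4.93, 4.89 and 5.71 at 12 h. The late readings were 8.55, 8.39 and 6.86 at 24 h and 8.78, 8.20 and 7.49 at 48 h, and all 6 exceeded every earlier array. At 24 h the mean of 7.93 ± 0.93 was 3.78-fold above the 0 h mean of 6.01 ± 0.27 (difference 1.92, SE 0.37, limma adjusted p = 0.00182). At 48 h the mean of 8.16 ± 0.65 was 4.42-fold above it (difference 2.14, limma adjusted p = 0.000536). Between 12 and 24 h the gain was 2.76, or 6.76-fold (limma adjusted p = 0.000617). For both genes, ordering the times by mean level gave 48 and 24 h on top with overlapping arrays, then 0 h, then 4, 12 and 8 h with overlapping arrays.

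PARP14, a large macrodomain enzyme that attaches single ADP-ribose units, began close to background. It read 3.37, 3.98 and 3.19 at 0 h, 3.23, 3.33 and 3.06 at 4 h, 2.99, 3.53 and 3.07 at 8 h, and 3.36, 2.83 and 3.23 at 12 h. The 0 h values were 0.20 to 0.86 above the lower quartile of all probe sets on their arrays. PARP14 then read 6.27, 6.11 and 4.37 at 24 h and 6.77, 7.39 and 6.14 at 48 h, again above all 12 earlier arrays. The 24 h mean of 5.59 ± 1.05 was at least 4.20-fold above the 0 h mean of 3.51 ± 0.41 (difference 2.07, SE 0.39, limma adjusted p = 0.00141). The 48 h mean of 6.77 ± 0.62 was at least 9.55-fold above it (difference 3.26, limma adjusted p = 1.28e-05). The words "at least" refer to the background under the 0 h signal, which can make a fold too small, and not to the spread between arrays. The 12 h values were -0.21 to 0.34 above that quartile, so the gain between 12 and 24 h was at least 2.44 (limma adjusted p = 0.0025), and the 48 h minus 24 h difference was 1.18 (SE 0.39, limma adjusted p = 0.274).

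**Figure D1:**
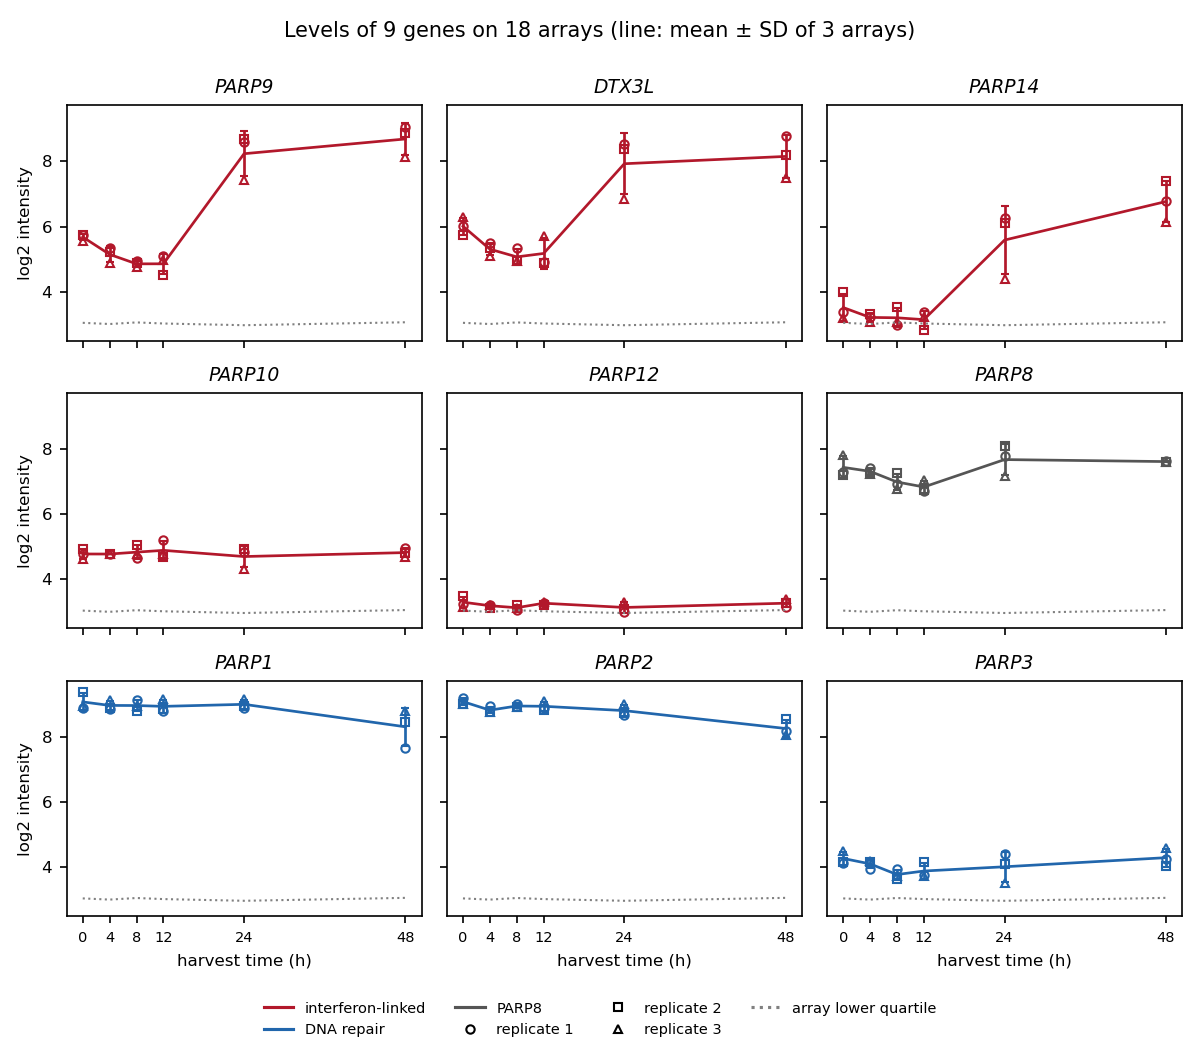
Levels of the 9 genes on all 18 arrays, with harvest time in hours on the x axis and log2 intensity on the y axis. Points are arrays, and lines join the means of 3 arrays with SD bars. The dotted line is the mean over arrays of the lower quartile of all probe sets. PARP9, DTX3L and PARP14 step up between 12 and 24 h, while PARP12 stays near the dotted line.

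Replicate 3 was the lowest late array for each of the 3 genes that rose. At 24 h its difference from the mean of the other 2 replicates was -1.20 in PARP9, -1.61 in DTX3L and -1.82 in PARP14. At 48 h the same differences were -0.84 in PARP9, -1.0 in DTX3L and -0.94 in PARP14. The mean over 12 measured genes of interferon signalling was also lowest on that array at 24 h, with 6.78, 6.69 and 6.19 on replicates 1, 2 and 3 of 24 h, against 5.70, 5.52 and 5.98 on those of 0 h. At 48 h that mean was 6.42, 6.79 and 6.34. Its part in the spread of the 3 genes was not tested. Without replicate 3 of 24 h, the 24 h minus 0 h difference was 2.96 for PARP9, 2.46 for DTX3L and 2.68 for PARP14. PARP14's fold then moved by more than 1.5 times, and all 3 calls held whichever array was left out.

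Earlier in the course, 0 of the 9 genes passed the test against 0 h, where 1.75% of all genes did at 4 h, 6.68% at 8 h and 8.05% at 12 h. In 12 h cells PARP9 differed from 0 h by -0.82 (SE 0.28, limma adjusted p = 0.0877) and DTX3L by -0.84 (SE 0.37, limma adjusted p = 0.201), neither past the test. PARP9 did pass at 12 h in 4 of 17 alternatives and at 8 h in 3 of 16, with array weights and with only the 6 arrays compared among them at both times. With only the 6 arrays compared, DTX3L passed at both times too. In both genes all 3 arrays of 4, 8 and 12 h lay below the 3 arrays of 0 h, as they did in 7.96%, 10.6% and 12.3% of all genes at these times. The 8 h minus 0 h differences were -0.83 for PARP9 and -0.94 for DTX3L, and without replicate 2 of 8 h they were -0.84 and -0.88. PARP14 differed from 0 h by -0.30, -0.32 and -0.37 at 4, 8 and 12 h with overlapping arrays, all near background, so a fall could not be seen.

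PARP10, which attaches single ADP-ribose units and binds the MYC protein, read 4.86, 4.94 and 4.32 at 24 h and 4.98, 4.82 and 4.68 at 48 h, against 4.78, 4.92 and 4.64 at 0 h. The arrays of these times overlapped. The 48 h minus 0 h difference was 0.04 (SE 0.18, limma adjusted p = 0.921), and the test over all times gave an adjusted p of 0.965 with limma's F test.

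PARP12, a zinc-finger enzyme of the same branch, read 3.00, 3.10 and 3.32 at 24 h and 3.15, 3.26 and 3.40 at 48 h, against 3.25, 3.50 and 3.17 at 0 h. By mean over all arrays it lay among the dimmest 25% of genes. On the 9 arrays of 0, 24 and 48 h it was 0.07 to 0.37 above the lower quartile of its array, so a change under the background could not be seen. The 48 h minus 0 h difference was -0.03 (SE 0.13, limma adjusted p = 0.918).

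The RefSeq promoter table (build GRCh38.p14, 250 bases before to 50 after each gene start) was searched on both strands for GAAA, any 2 bases and GAAA again, a core of the interferon-stimulated response element found at many interferon-induced genes. The second motif was TTCNNNGAA, the gamma-activated site, which reads the same on both strands and does not overlap the first in these genes. The sequences below are shown because they hold the matches of the genes that rose and of PARP12, which did not pass the test. Capitals mark the response element motif or its reverse complement, and in PARP14 the first run of capitals marks TTCNNNGAA. PARP9 and DTX3L lie head to head, and 1 site serves both windows. Their stretch is chr3:122564301-122564341, plus strand, the PARP14 stretch is chr3:122680739-122680838, plus strand, and the PARP12 stretch is chr7:140062952-140063051, minus strand.
PARP9 and DTX3L: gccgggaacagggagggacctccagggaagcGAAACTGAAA
PARP14: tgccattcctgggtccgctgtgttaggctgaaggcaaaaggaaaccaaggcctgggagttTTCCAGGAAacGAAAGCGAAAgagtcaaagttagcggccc
PARP12: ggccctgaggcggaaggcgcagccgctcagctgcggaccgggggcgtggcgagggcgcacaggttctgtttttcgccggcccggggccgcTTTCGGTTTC

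The shared site, chr3:122564332-122564341, lies 41 to 32 bases before one PARP9 start, and begins 6 bases before the DTX3L start and runs across it. These starts are 38 bases apart, and the window of the other PARP9 start, 446 bases from the DTX3L start, held neither motif. In PARP14 the response element lay 29 to 20 bases before the start, and in PARP12 it lay 10 to 1 bases before the start, on the opposite strand. PARP10 has no promoter in the table. All 4 other interferon-linked genes held the response element motif at a start. The count was 0 of 3 for PARP1, PARP2 and PARP3, 0 of 1 for PARP8 and 0 of 7 for other ADP-ribosyltransferase genes. It was 1 of 10 for interferon signalling genes, the 1 being SOCS1. Genes that remove ADP-ribose gave 0 of 6, repair partners of PARP1 0 of 9 and NAD genes 0 of 9. Among marker genes it was 1 of 3 for T cells, 1 of 4 for monocytes and 0 of 3 for B cells. Among all 35116 promoters, 3.57% held the response element motif, and 7.66% held the gamma-activated site motif. Counted by gene, as in the lists above, 4.38% and 9.38% of 27305 genes held them. Of the tested genes with a promoter, 28.0% of the 125 that rose between 12 and 24 h held the response element motif, against 4.12% of all 14239. PARP9, DTX3L and PARP14 are among the 125. Of genes higher at 24 h than at 0 h, 7.53% of 1023 held it, and of those lower, 3.00% of 867. The gamma-activated site motif was held by 21.6% of the 125, against 9.20% of all 14239. PARP12 carries the response element motif and did not pass the test. It stayed near background, where a fall or a change kept under the background could not be seen. A rise out of background, as in PARP14, was not seen in PARP12. A match here is a description of letters only. In the gene table of GRCh38.p14, PARP9, DTX3L, PARP15 and PARP14 are consecutive protein-coding genes on chromosome 3. PARP15, which lies between DTX3L and PARP14, differed from 0 h by -0.11 at 24 h (limma adjusted p = 0.851) and -0.03 at 48 h (limma adjusted p = 0.963). Its arrays read 3.05 to 4.32. At 0 h it read 3.57, 3.29 and 4.32, the last above its array's median of 4.03. The other arrays of PARP15 lay nearer to background. A small change could be hidden by background and by the spread at 0 h.

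**Figure D2:**
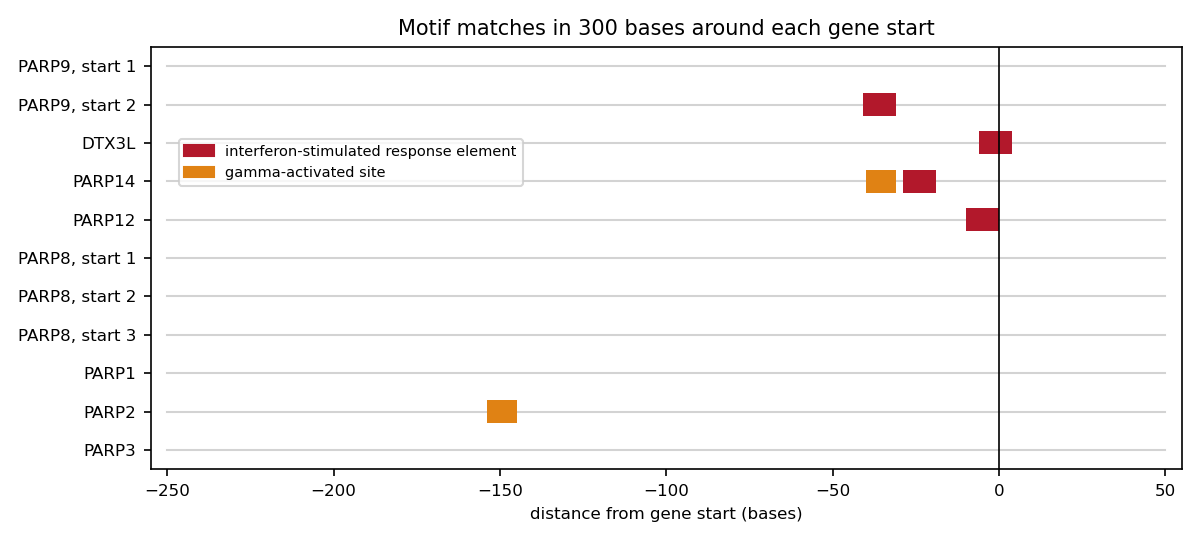
Motif matches in the 300-base RefSeq windows of 8 of the 9 genes, 1 line per gene start, with distance from the start in bases on the x axis. Red bars are the response element motif and orange bars TTCNNNGAA; the red bars of PARP9 and DTX3L are the same 10 bases seen from each gene.

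PARP1, the main sensor of DNA strand breaks, read 8.90, 8.95 and 9.16 at 24 h and 7.68, 8.47 and 8.80 at 48 h, against 8.89, 9.39 and 8.96 at 0 h. The 3 arrays of 48 h lay below the 3 of 0 h, as in 13.2% of all genes, and those of 24 h overlapped them. At 48 h the mean was 8.32 ± 0.57, against 9.08 ± 0.27 at 0 h (SD, n = 3 each), a difference of -0.77 (SE 0.23, limma adjusted p = 0.027). That call was lost without replicate 1 of 48 h (-0.45, limma adjusted p = 0.164) and without replicate 2 of 0 h (-0.61, limma adjusted p = 0.139). It was also lost after quantile normalization (-0.60, limma adjusted p = 0.0609) and in 2 further alternatives, and PARP1 did not pass the F test over all times (limma adjusted p = 0.142).

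PARP2, which shares the break-sensing role of PARP1, read 8.68, 8.74 and 9.01 at 24 h and 8.17, 8.55 and 8.07 at 48 h, against 9.21, 9.03 and 9.03 at 0 h. All 6 late arrays lay below the 0 h arrays, and at 24 h that was so in 13.6% of all genes. The 48 h mean of 8.26 ± 0.25 fell short of the 0 h mean of 9.09 ± 0.11 by 1.77-fold, a difference of -0.83 (SE 0.15, limma adjusted p = 0.000779). At 24 h the difference was -0.28 (limma adjusted p = 0.297), and the 48 h minus 24 h difference was -0.55 (limma adjusted p = 0.145). The F test gave an adjusted p of 0.00752 with limma, and 0.0504 without replicate 3 of 48 h.

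PARP3, a break sensor that attaches single ADP-ribose units, read 4.42, 4.10 and 3.52 at 24 h and 4.26, 4.03 and 4.59 at 48 h, against 4.13, 4.17 and 4.51 at 0 h. The groups overlapped, and the 48 h minus 0 h difference was 0.02 (SE 0.21, limma adjusted p = 0.965). On these arrays PARP3 was 0.44 to 1.53 above the lower quartile of its array, so background could hide part of a fall. The F test gave an adjusted p of 0.35 with limma.

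The 100 bases before the starts of PARP1 (chr1:226408094-226408193, minus strand) and PARP2 (chr14:20343535-20343634, plus strand), the 2 repair genes that were lower at 48 h, are shown to set beside the stretches above. Neither stretch holds the response element motif or TTCNNNGAA, and the PARP2 window holds TTCNNNGAA further out, from 154 bases before the start.
PARP1: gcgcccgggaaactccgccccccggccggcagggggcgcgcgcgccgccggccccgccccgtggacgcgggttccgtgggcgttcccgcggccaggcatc
PARP2: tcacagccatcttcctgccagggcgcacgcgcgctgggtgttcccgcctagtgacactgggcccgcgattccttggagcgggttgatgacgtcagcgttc

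Set side by side, 3 of the 5 interferon-linked genes were higher at 24 h than at 0 h past an adjusted p of 0.05, where 6.74% of all genes were. The count was again 3 of 5 at 48 h, against 6.92% of all genes, and 3 of 5 from 12 to 24 h, against 0.814% of all genes. Their median difference was 1.92 at 24 h and 2.14 at 48 h, beside -0.01 and 0.05 over all genes. Of the 3 repair genes, 0 were lower at 24 h, against 5.74% of all genes, and 2 were lower at 48 h, against 8.11% of all genes. With replicate 1 of 48 h or replicate 2 of 0 h left out, or after quantile normalization, the repair count at 48 h was 1. From 24 to 48 h, 0 of the 9 genes passed, against 0.402% of all genes. The median difference of the repair genes was -0.26 at 24 h and -0.77 at 48 h. These are counts of few genes chosen with results known, so no test between the sets was made.

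**Figure D3:**
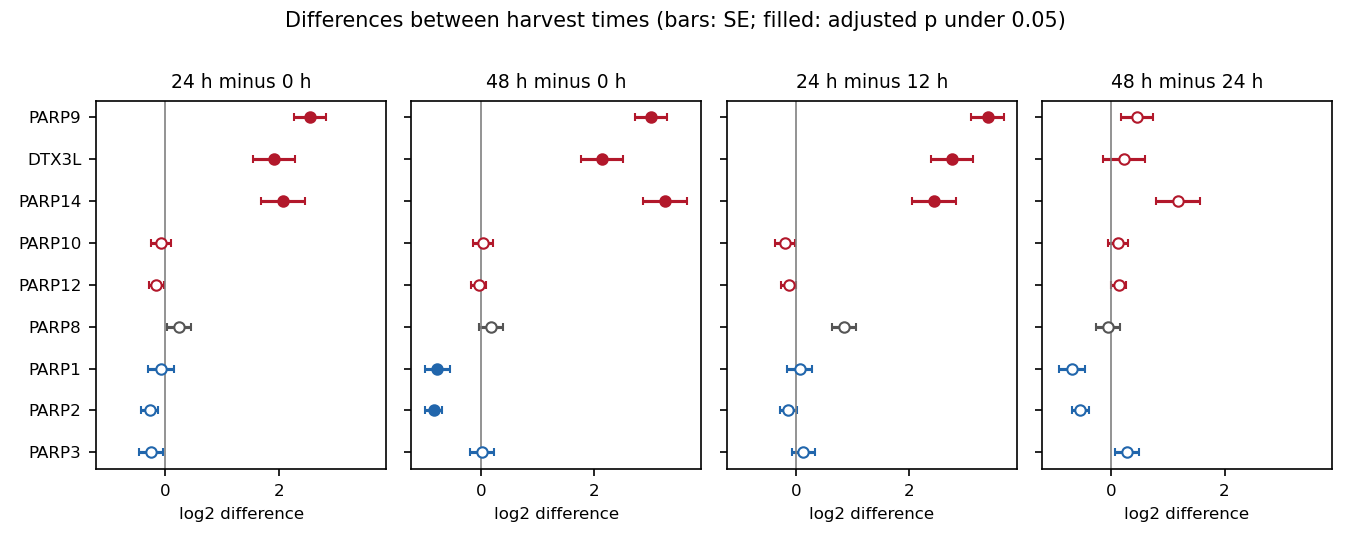
Differences of the 9 genes between harvest times on the log2 scale, later minus earlier, in 4 comparisons. Points are limma estimates with SE bars and are filled where the adjusted p is under 0.05; PARP9, DTX3L and PARP14 are filled in the first 3 panels and no gene is filled from 24 to 48 h.

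PARP8, an enzyme of the family with a less well known role, read 7.79, 8.09 and 7.17 at 24 h and 7.65, 7.60 and 7.62 at 48 h. At 12 h it read 6.71, 6.75 and 7.07, and at 0 h 7.29, 7.22 and 7.83. All 3 arrays of 24 h lay above those of 12 h, where 7.84% of all genes did. The 24 h mean of 7.68 ± 0.47 was 0.84 above the 12 h mean of 6.84 ± 0.20 (SE 0.21, limma adjusted p = 0.0644), just outside the threshold. Without replicate 3 of 24 h that difference was 1.10 (limma adjusted p = 0.00648). PARP8 passed the F test over all times (limma adjusted p = 0.0351), as 16.4% of all genes did, and lost that call in 12 of 27 alternatives.

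Over the 18 arrays, the level of PARP9 followed that of DTX3L with a Pearson r of 0.979, and PARP14 followed PARP9 with 0.969 and DTX3L with 0.938. The genes most like PARP9 were OAS2, which makes oligoadenylates on sensing viral RNA, with an r of 0.985, EPSTI1 with 0.984 and TRIM22 with 0.981, both known as interferon-induced. The genes most like PARP14 were RSAD2, which encodes the antiviral protein viperin, with 0.985, DDX60 with 0.979 and MOXD1 with 0.975. DTX3L was most like TRIM22, PARP9 and EPSTI1. PARP2 was most like RFC4, a clamp loader subunit of DNA replication, with 0.922, then NDUFAF2 and the mitotic kinase AURKA with 0.897. PARP1 was most like the kinase gene MTOR with 0.923. These r values describe 18 arrays that share a time course and a normalization, and arrays of 24 and 48 h lie apart from the others for the genes that rose, so no p is given.

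Members of the wider family were followed in the same fit. Of 9 other ADP-ribosyltransferase genes, 2 were higher at 24 h and 3 at 48 h than at 0 h, against 6.74% and 6.92% of all genes, and 0 were lower. Their median differences were 0.21 and 0.22. TIPARP, which is induced by dioxin and limits its receptor, differed from 0 h by 1.81 at 4 h, 1.75 at 24 h (limma adjusted p = 3.43e-05) and 1.69 at 48 h (limma adjusted p = 2.92e-05). It was thus high before the step of PARP9, and its 24 h minus 12 h difference was 0.00. The tankyrase gene TNKS2 was higher by 0.93 at 24 h (limma adjusted p = 0.000846) and by 0.94 at 48 h (limma adjusted p = 0.000605). It was also higher by 0.71 at 8 h and 0.78 at 12 h (limma adjusted p = 0.0133 and 0.00596), the 8 h call being lost without replicate 1 or 2 of 0 h or replicate 3 of 8 h, and with only the 6 arrays compared. ZC3HAV1, the antiviral zinc-finger protein ZAP, differed by 0.97 at 4 h (limma adjusted p = 0.0535) and by 0.83 at 8 h (limma adjusted p = 0.0499), a call lost when any 1 array of 8 or 0 h was left out, and by -0.06 at 12 h. It then differed by 0.55 at 24 h (limma adjusted p = 0.186) and 0.77 at 48 h (limma adjusted p = 0.042), and the 48 h call was lost in 7 of 17 alternatives, among them without any 1 of the 3 arrays of 0 h or without replicate 1 or 2 of 48 h, where it fell to as little as 0.48. Of 5 measured genes that remove ADP-ribose, only OARD1, which clears it from acidic residues, was lower at 24 h (-1.03, limma adjusted p = 0.00774). Over all genes, 5.74% were lower then. Without replicate 1 of 24 h the OARD1 difference was -0.87 (limma adjusted p = 0.0501), and 0 of the 5 passed at 48 h, or 1 without replicate 1 of 0 h. Already at 8 h and at 12 h, 1 of the 5 was lower, and the lowest differences of the list were -0.84 and -1.03. In either direction, 6.68% and 8.05% of all genes passed at these times.

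Some genes that work with PARP1 at strand breaks were lower late in the course. Of 10 measured, 3 were lower at 24 h and 5 at 48 h than at 0 h, against 5.74% and 8.11% of all genes, and 0 were higher at either time, with median differences of -0.35 and -0.68. The list mean was 5.69 to 6.01 on the arrays of 48 h, against 6.43 to 6.61 on those of 0 h. Without replicate 3 of 0 h, 1 gene was higher at 24 h and 2 at 48 h. Without replicate 1 of 24 h, or with array weights, 1 was higher at 24 h. The count lower at 48 h was 4 to 7 over 17 alternatives. Earlier, 1 of the 10 was lower and 0 were higher at 4 h. At 8 h 1 was higher and 1 lower, and likewise at 12 h. The highest differences at 4, 8 and 12 h were 0.80, 1.20 and 0.98, and the lowest were -0.77, -0.99 and -0.83. Over all genes, 1.75%, 6.68% and 8.05% passed in either direction. TDP1, which frees DNA ends from trapped proteins, differed by -1.05 at 24 h and -1.40 at 48 h (limma adjusted p = 0.000497 and 1.97e-05). The sliding clamp gene PCNA differed by -1.16 and -1.28 (limma adjusted p = 0.000806 and 0.000227), and the flap nuclease gene FEN1 by -0.91 and -1.37 (limma adjusted p = 0.035 and 0.00174). Both are also DNA replication genes. The FEN1 call at 24 h was lost when replicate 1 or 2 of either time was left out (limma adjusted p of up to 0.188). CHD1L, a chromatin remodeller switched on by ADP-ribose chains, differed by -0.43 at 24 h (limma adjusted p = 0.316) and -1.06 at 48 h (limma adjusted p = 0.00442). The last of the 5 was the ligase gene LIG3 at -0.76 (limma adjusted p = 0.0402), named after its value was seen. The LIG3 call was lost in 7 of 17 alternatives, among them without replicate 1 or 3 of 0 h or of 48 h (limma adjusted p of up to 0.197).

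Of 10 genes that make or use NAD, the substrate of all these enzymes, 2 were lower at 24 h, against 5.74% of all genes, and 0 at 48 h, or 1 after quantile normalization or median centring. They were CD38, which breaks NAD down (-1.19, limma adjusted p = 0.0476), and NMNAT3 (-0.65, limma adjusted p = 0.045), the second named after its value was seen. CD38 was lower still before that, by -1.71 at 8 h (limma adjusted p = 0.00987) and -2.25 at 12 h (limma adjusted p = 0.001), and at 48 h its difference was -0.38 (limma adjusted p = 0.602). The count at 24 h fell to 0 without any 1 of the 3 arrays of 0 h and without replicate 2 or 3 of 24 h, and to 1 without replicate 1 of 24 h or without replicate 2 of 8 h.

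Of 12 measured genes of interferon signalling, 6 were higher at 24 h and 4 at 48 h than at 0 h, against 6.74% and 6.92% of all genes, and 0 were lower. Their median differences were 0.66 and 0.56. The count at 48 h was 8 after quantile normalization and 7 without replicate 3 of 0 h. The transcription factor gene IRF1 differed by 2.79 at 24 h (limma adjusted p = 0.00251) and 2.02 at 48 h (limma adjusted p = 0.0191); the 48 h call was lost when replicate 2 of 0 h or replicate 1 or 2 of 48 h was left out (limma adjusted p of up to 0.102). The receptor kinase gene JAK2 differed by 1.12 and 1.64 (limma adjusted p = 0.00601 and 0.000187), and IRF9, a subunit of the complex that binds the response element, by 1.16 and 1.07 (limma adjusted p = 0.00127 and 0.00195). USP18, which damps interferon signalling, differed by 0.51 at 24 h (limma adjusted p = 0.248) and 1.06 at 48 h (limma adjusted p = 0.00737).

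**Figure D4:**
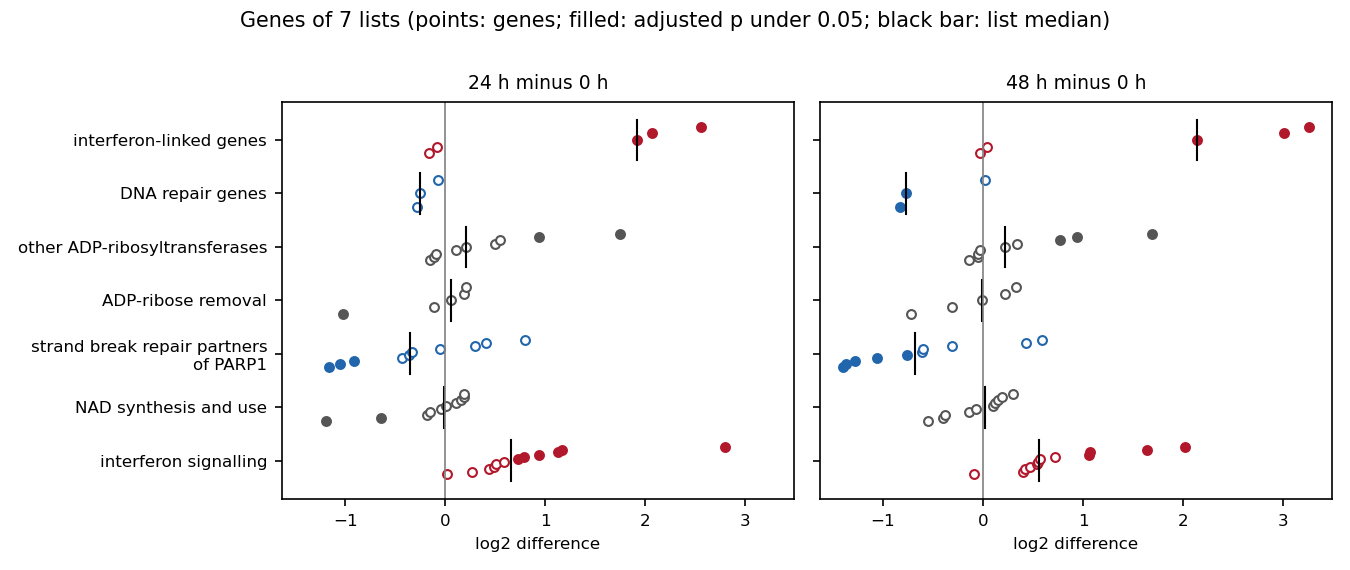
Differences from 0 h at 24 h and 48 h on the log2 scale for the genes of 7 lists. Points are genes, filled where the adjusted p is under 0.05, and black bars are list medians; the median of the interferon-linked genes lies at 1.92 and 2.14 and that of the strand break repair partners at -0.35 and -0.68.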

How the data were processed

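The samples are 18 arrays of Raji cells, 3 biological replicates at each of 6 harvest times, grouped by the harvest time in the labels. Per the labels' protocols, column-purified RNA (200 ng) gave the biotinylated cDNA. The deposited values are log2 intensities, 1 per probe set. Their log base was deduced from the maxima, and the authors' software, background correction and normalization are not given in the sources used here. No detection call was used, so values near the array's lower quartile were treated as near background. No counts stand behind a value, and the number of arrays limits the precision.

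Of 33297 probe sets, the platform's gene table names 1 gene for 19460, several for 1754 and none here for 12083. By gene ID, 19429 matched the RefSeq gene table and 0 symbols were updated. Each of 18417 genes was represented by its probe set of highest mean.

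The model, fitted with limma 3.58.1 in R 4.3.3, had harvest time as its single term and took in the 18 arrays together (12 residual and 5.58 prior degrees of freedom). Two-sided moderated tests compared each time with 0 h and with the time before, and a moderated F test covered all times. Benjamini-Hochberg adjustment ran over all genes within each comparison, and 0.05 was the threshold. Errors are SDs of 3 arrays and SEs of the model. The fit was tested on simulated data.

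The genes, the lists, the tests and the alternatives were chosen with earlier results of these data known. Named genes are the 9 genes, up to 4 genes per list with the largest difference at 24 or 48 h among those past the F test, any gene of the 9 other ADP-ribosyltransferases, and the 3 genes most correlated with each of the 9.

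Alternatives were quantile normalization, centring on the median, leaving out the dimmest 25% of genes, the mean of or single probe sets, the interquartile range as a covariate, array weights, another prior, only the 6 arrays compared, a replicate block and leaving out single arrays. Leaving replicate 2 of 8 h out of every comparison was added after seeing the data. Python 3.11.15, pandas 2.3.3 and matplotlib 3.10.9 made tables and plots.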

Additional observations from a re-analysis of the deposited data

How the results depend on the processing

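The count of interferon-linked genes that were higher was 3 at 24 h and 48 h minus 0 h and from 12 to 24 h in every alternative run, and the 24 h minus 0 h, 48 h minus 0 h and 24 h minus 12 h calls of PARP9, DTX3L and PARP14 held in 17 of 17, with adjusted p-values of at most 0.0239. The count of repair genes lower at 48 h than at 0 h was 2, and it was 1 under quantile normalization, under a covariate for the interquartile range and in a fit of only the 6 arrays compared; it was 1 to 2 with single arrays left out. From 24 to 48 h that count was 0, and 0 to 1 with single arrays left out, the 1 being PARP1 without replicate 3 of 48 h (limma adjusted p = 0.0469). PARP1 at 48 h was called in 12 of 17 alternatives, with differences of -1.01 to -0.45, and PARP2 in 17 of 17. The count of interferon-linked genes lower than at 0 h was 0 at 8 and 12 h, also with single arrays left out. At both times it was 1 with array weights, 1 with the replicate block and 2 with only the 6 arrays compared, and at 12 h it was 1 with median centring; the gene was PARP9, joined by DTX3L where the count was 2. PARP8 passed at 12 h minus 0 h with median centring (-0.73, limma adjusted p = 0.0493) and from 12 to 24 h with array weights (1.07, limma adjusted p = 0.000403). PARP12 fell below the filter on dim genes. The causes of these moves were not tested.

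Replicate numbers were not taken as pairs, because the labels do not say that equal numbers belong together across times. The deviations of same-numbered arrays correlated at -0.24 to 0.60, over 0.1 in 20 of 45 pairs. For arrays of different number that was so in 25 of 90 pairs. The median r was 0.08 for same-numbered arrays and -0.06 for the others, and 15 of 18 arrays correlated best with one of their own number, which is a hint from the data and not from the design. With the replicate block, the interferon-linked count stayed at 3 at 24 h and 48 h and the repair count at 2 at 48 h, over all genes 306 were called from 12 to 24 h, against 252 without it, and 104 from 24 to 48 h, against 74. The block brought PARP9 past the test at 8 and 12 h minus 0 h and took PARP8 out of the F test (limma adjusted p = 0.0507), and it changed no other call of the 9 genes. Over all genes, array weights called 1099 from 12 to 24 h and 206 from 24 to 48 h, while leaving out single arrays called 105 to 335 and 35 to 258, and only the 6 arrays compared called 10 in the later interval. At 4 h minus 0 h, 322 were called, 611 with a covariate for the interquartile range, 566 with array weights, 125 with only the 6 arrays and 109 to 256 with single arrays left out, the lowest being without replicates 1 and 2 of 4 h and replicate 2 of 0 h (156, 109 and 135). At 8 h it was 1230, 2183 with array weights, 575 with only the 6 arrays and 759 to 1004 with single arrays left out, 759 without replicate 2 of 0 h. At 12 h it was 1483 and 888 to 1229 with single arrays left out, where omitting replicate 1 of 12 h gave 888 and omitting replicate 2 of 0 h gave 977. Centring each array on its median turned the share of higher calls to 42.9% at 24 h, against 54.0%, and to 30.5% at 48 h, against 46.1%, as the median of all genes moved to -0.10 and -0.09, against -0.01 and 0.05.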
